A study of Mus musculus with 8 samples.

Results

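Semaphorins, plexins, neuropilins, Eph receptors, ephrins, Slits, Robos and netrins were followed in microglia, which are the macrophages of brain tissue. The genes were taken by symbol, as every gene whose single annotated name starts with Sema, Plxn, Epha, Ephb, Efna, Efnb or Robo, together with Nrp1, Nrp2, the 3 Slit genes, Ntn1 and Ntn4. This gave 61 genes of the 19938 with a name of their own, each represented by the probe set with the highest mean over the 8 arrays. The microglia were sorted from whole brains of female Swiss Webster mice at 17 weeks, 4 samples with the genotype MFP2 knockout and 4 wild-type controls, as cells high in CD11b and intermediate in CD45. The gene for MFP2 is Hsd17b4, and its product breaks down fatty acids in peroxisomes. The labels do not say how the gene was disrupted, whether in all cells, or whether a sample held cells of more than 1 animal. The p-values therefore reflect only how much these samples vary.

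These families were named for steering growing axons, and most work as ligands on one cell and receptors on another. Class 3 semaphorins are secreted and are held by neuropilins, which pass the signal on through plexins, while semaphorins of classes 4 to 7 are bound to the membrane and mostly engage plexins directly. Ephrins are membrane-bound ligands of the Eph receptor tyrosine kinases and signal in both directions, Slits act through Robos, and netrins act through receptors such as Dcc. In macrophages and microglia, several of them are known to take part in cell movement and in contact with vessels, neurons and lymphocytes.

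In knockout microglia both neuropilins, plexin-D1 and Sema7a rose, while Sema6d, Sema4b, plexin-A4, ephrin-B1, ephrin-B2 and Epha1 fell. Of the 61 genes, 4 were higher and 6 lower by limma at an adjusted p under 0.05, and 51 did not pass. That is 16.4% called, beside 9.55% of all 19938 genes (5.38% higher and 4.17% lower). The genes were chosen by name with earlier results of these data known, so these shares are a description with no test. The median log2 difference over the 61 genes was -0.03, beside -0.02 over all genes. Bulk samples cannot tell fewer cells of a type from less RNA per cell.

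The neuropilins rose together and ephrins B1 and B2 fell together, and the sequences at their start sites are shown for that reason. Each window runs from 250 bases before to 50 bases after the start of the RefSeq gene (build GRCm38.p6, 5′ to 3′ along the gene), with matches to GGGCGG, the GC box, in capitals. Nrp1 lies at chr8:128358823-128359122 on the plus strand and Nrp2 at chr1:62703067-62703366 on the plus strand. Efnb1 lies at chrX:99135811-99136110 on the plus strand and Efnb2 at chr8:8661193-8661492 on the minus strand.
Nrp1: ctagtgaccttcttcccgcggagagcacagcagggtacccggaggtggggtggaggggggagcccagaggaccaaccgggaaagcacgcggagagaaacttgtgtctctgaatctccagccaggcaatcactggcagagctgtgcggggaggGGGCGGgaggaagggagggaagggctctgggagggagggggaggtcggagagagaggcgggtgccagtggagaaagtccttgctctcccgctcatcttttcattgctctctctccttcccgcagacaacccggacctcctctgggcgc
Nrp2: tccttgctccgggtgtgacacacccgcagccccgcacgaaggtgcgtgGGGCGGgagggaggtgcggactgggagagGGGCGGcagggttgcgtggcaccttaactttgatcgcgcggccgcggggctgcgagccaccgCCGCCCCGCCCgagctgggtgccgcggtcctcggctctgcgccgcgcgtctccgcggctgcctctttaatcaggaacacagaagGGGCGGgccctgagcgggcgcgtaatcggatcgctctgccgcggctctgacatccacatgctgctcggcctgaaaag
Efnb1: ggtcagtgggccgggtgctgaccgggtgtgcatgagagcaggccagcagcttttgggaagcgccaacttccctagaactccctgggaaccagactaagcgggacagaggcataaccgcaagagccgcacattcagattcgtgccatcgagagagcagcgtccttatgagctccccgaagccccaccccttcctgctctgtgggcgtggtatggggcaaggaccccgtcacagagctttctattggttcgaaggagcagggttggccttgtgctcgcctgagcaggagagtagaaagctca
Efnb2: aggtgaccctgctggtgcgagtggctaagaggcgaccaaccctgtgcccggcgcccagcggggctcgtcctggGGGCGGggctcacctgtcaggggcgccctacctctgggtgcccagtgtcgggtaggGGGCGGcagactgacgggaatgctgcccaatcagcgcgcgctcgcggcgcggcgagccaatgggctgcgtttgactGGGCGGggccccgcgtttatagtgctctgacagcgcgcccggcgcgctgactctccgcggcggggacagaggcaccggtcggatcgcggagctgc
The GC box was found 1 time at Nrp1, 5 times at Nrp2, 3 times at Efnb2 and 0 times at Efnb1, counting both strands and overlapping matches. Of the 10 called genes, 9 have a window in the table, and 8 of these hold a GC box in at least 1 window. Counted by window, 9 of their 11 windows hold it. The guidance genes have 69 windows, which cover 53 of the 61 genes. Of these windows 72.5% hold a GC box, against 35.7% of all 32851 windows. The guidance windows have a median of 64.0% G and C against 52.7%. Of the other motifs searched on both strands, CACGTG (E-box) was in 2 of the 11 windows of the called genes, at Sema4b and Sema6d. It was in 7.25% of the guidance windows and 7.15% of all windows. GAGGAAGT (PU.1) and TGANTCA (AP-1) were in 0 of the 11 windows of the called genes and in 3.2% and 7.81% of all windows. These are matches of letters and not sites of binding.

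Hsd17b4 separated the groups without overlap and was lower in knockouts by 2.88 ± 0.44 (SE) on the log2 scale (limma adjusted p = 0.00158). Its values ran from 7.82 to 9.09 in controls and from 4.76 to 7.20 in knockouts, where knockout 2 was the highest. Of 8 microglial markers 5 were lower and 0 higher, with a summed log2 level of 14.80 to 14.97 in controls and 14.39 to 14.58 in knockouts. The 5 lower genes, Tmem119, Cx3cr1, P2ry12, Sall1 and Csf1r, kept means between 10.65 and 12.34 in knockouts. The sort marker Itgam was at 11.75 in controls and 11.66 in knockouts. Control 1 went against its female label, with Xist at 6.80 and the Y-linked Eif2s3y at 8.14, while the other 7 arrays lay between 10.55 and 10.99 and between 2.78 and 2.99. In earlier results of these data control 3 and knockout 2 lay between the groups. Array medians were between 6.03 and 6.15, and 4 arrays per group limit the precision.

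The neuropilins had the lowest adjusted p of all the families. Nrp1, a co-receptor for class 3 semaphorins and for vascular endothelial growth factors (probe set 10576639), had log2 values of 6.19, 6.63, 7.07 and 6.31 in control 1 to control 4. In knockout 1 to knockout 4 it was at 7.98, 8.22, 8.70 and 8.96. The groups were 0.91 apart, and control 3 was the control array closest to the knockouts. The difference was 1.92 ± 0.22 (SE), or 3.77-fold (limma adjusted p = 0.000432, higher in 4 of 4 knockout arrays than in any control).

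Nrp2, its relative with a preference for other class 3 semaphorins and growth factors (probe set 10346843), was at 7.15, 7.24, 7.15 and 7.20 in the controls and 7.87, 7.92, 8.24 and 8.29 in the knockouts. The control arrays had an SD of 0.05 around their mean of 7.18, and the knockout arrays were more spread (8.08 ± 0.21, SD, n = 4). The difference was 0.89 ± 0.11 (SE), or 1.86-fold (limma adjusted p = 0.000441). Knockouts 3 and 4 were the highest arrays for both neuropilins, and both genes were called in all 18 alternatives, with differences of 1.75 to 2.17 for Nrp1 and 0.82 to 0.96 for Nrp2.

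The growth factor receptor Flt1, which like the neuropilins serves vascular endothelial growth factors, stands on the endothelial marker list and rose by 1.99 ± 0.30 (SE, limma adjusted p = 0.00143). Of the 7 measured endothelial markers it was the only one called higher, and Pecam1 was the only one called lower, by 1.56 ± 0.21 (limma adjusted p = 0.000784). The junction genes Cldn5 (5.79 in controls, 5.69 in knockouts) and Cdh5 (5.37 and 5.36) did not pass. The summed endothelial list had a log2 level of 8.35 to 8.87 in controls and 8.40 to 9.09 in knockouts. Flt1 and Pecam1 were the brightest genes of that list (means 6.68 and 6.79), so their opposite changes offset each other in the sum. Kdr, the signalling partner of Nrp1 in endothelium, was at 6.07 and 6.01 (limma adjusted p = 0.783). The part of other cells in the neuropilin values was not tested.

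Among the plexins, the receptors that carry a GTPase-activating domain inside the cell, 1 of 9 rose and 1 fell. Plxnd1, the receptor for Sema3e (probe set 10547100), was at 6.64, 6.21, 6.71 and 6.30 in controls and 7.18, 7.01, 7.45 and 6.95 in knockouts. The groups were 0.24 apart. The difference was 0.68 ± 0.14 (SE, 1.60-fold, limma adjusted p = 0.00849), but it did not pass when tested against a change of 1.2-fold (adjusted p = 0.149).

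Plxna4, which with Nrp1 forms a receptor for Sema3a and also binds class 6 semaphorins (probe set 10543802), moved the other way. Its log2 values were 9.26, 9.67, 9.07 and 9.73 in controls and 8.83, 8.59, 8.47 and 8.23 in knockouts. Control 3 was the lowest control and knockout 1 the highest knockout, 0.23 apart. The difference was -0.90 ± 0.16 (SE), a 1.86-fold lower level (limma adjusted p = 0.00396), and it was called in all 18 alternatives.

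The other 7 plexins did not pass. Plxnc1, the receptor of Sema7a, was at 5.63 to 6.55 in controls and 6.23 to 6.67 in knockouts, and the groups overlapped through control 3, the highest control. Its difference of 0.42 ± 0.17 (SE) had a limma adjusted p of 0.156, and without control 3 it was 0.59 with an adjusted p of 0.0181. No other fit with 1 array left out called Plxnc1. Plxnb2, a receptor of class 4 semaphorins, had means of 10.31 and 10.34, with a 95% interval of the difference from -0.17 to 0.24. Plxna1, a receptor for Sema6d, had means of 6.61 and 6.58, with an interval from -0.22 to 0.15. Plxnb3 had groups that did not overlap, at 6.16 to 6.23 in controls and 5.97 to 6.12 in knockouts, but its difference of -0.11 ± 0.08 did not pass (limma adjusted p = 0.492). The 10 called genes and Plxnb3 make 18% of the 61 genes with groups apart, beside 14% of all genes.

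**Figure D1:**
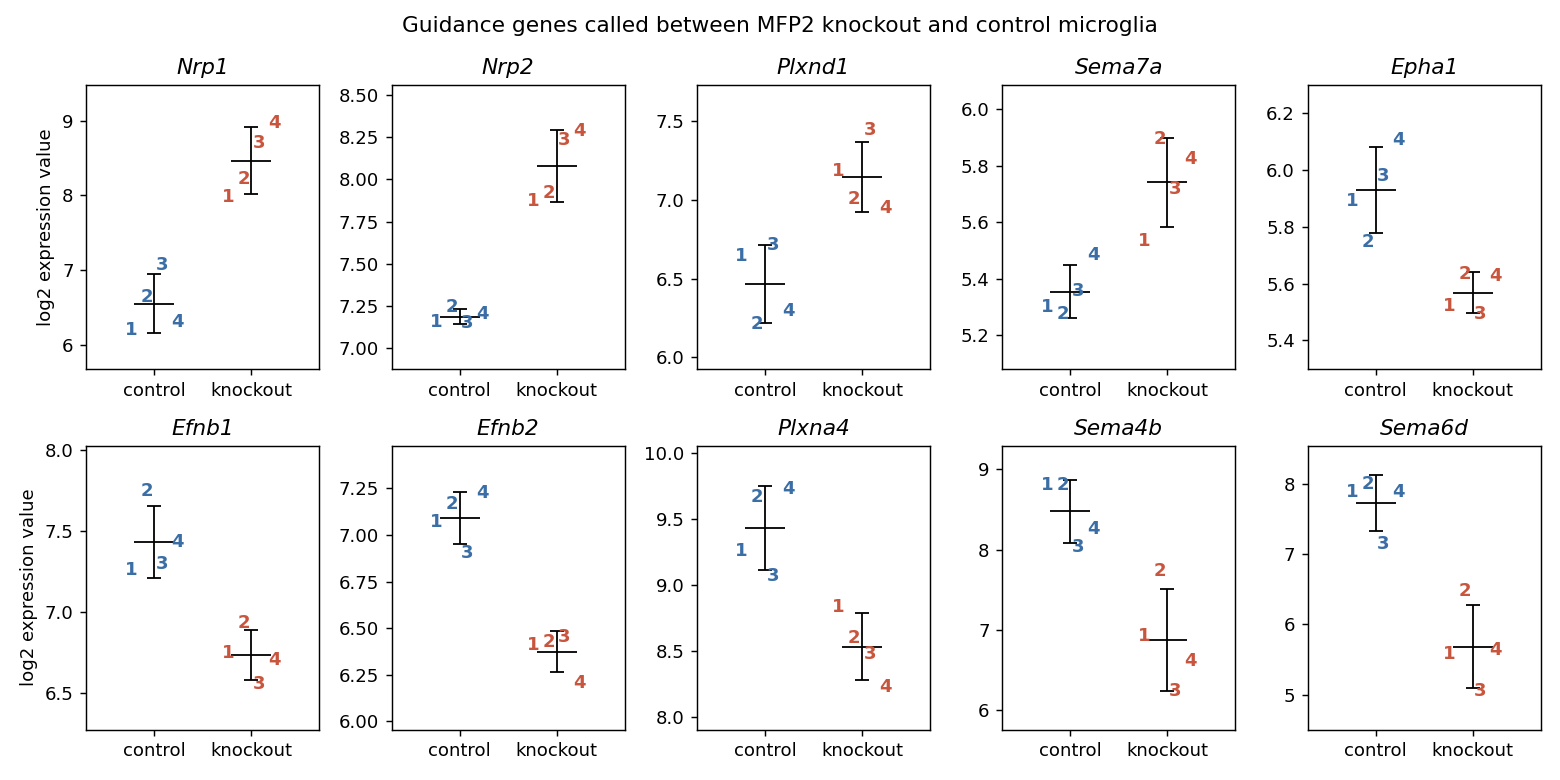
Log2 expression values of the 10 called guidance genes, with each array drawn as its replicate number (controls blue, knockouts red), the group mean as a horizontal line and the SD as an error bar; each panel has its own axis. Nrp1 and Nrp2 lie 0.91 and 0.63 apart between the groups, while in Sema6d and Sema4b control 3 is the lowest control and knockout 2 the highest knockout.

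Of the membrane-bound semaphorins, Sema6d and Sema4b fell and Sema7a rose. Sema6d, a ligand of plexin-A1 that also acts as a receptor itself (probe set 10475544), was at 7.88, 8.00, 7.14 and 7.89 in controls and 5.57, 6.47, 5.05 and 5.63 in knockouts. Control 3 was lowest among the controls and knockout 2 highest among the knockouts, yet the groups stayed 0.67 apart. The difference was -2.05 ± 0.26 (SE), a 4.13-fold lower level (limma adjusted p = 0.000574), and -2.50 without control 3 and knockout 2. The adaptor Tyrobp and the receptor Trem2, which form a complex with plexin-A1 in dendritic cells and osteoclasts, did not pass, at 12.52 against 12.59 for Tyrobp and 10.76 against 11.00 for Trem2 (limma adjusted p = 0.676 and 0.111).

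Sema4b, a transmembrane semaphorin (probe set 10554375), was at 8.81, 8.80, 8.03 and 8.26 in controls and 6.92, 7.73, 6.24 and 6.61 in knockouts. As for Sema6d, control 3 and knockout 2 were the arrays nearest to the opposite group, and they were 0.30 apart. The difference was -1.60 ± 0.27 (SE, 3.03-fold lower, limma adjusted p = 0.00296), and -2.03 without these arrays. The other class 4 members did not pass. Sema4d, a ligand of B plexins and of Cd72, was at 9.74 to 9.94 in controls and 9.88 to 10.00 in knockouts, with an interval of the difference from -0.09 to 0.27, and its second probe set differed by -0.003 ± 0.105 (SE). Sema4g differed by -0.38 ± 0.16 (limma adjusted p = 0.205, or 0.0430 without knockout 1) and Sema4a, which acts on T cells, by 0.30 ± 0.17 (limma adjusted p = 0.379). Knockout 1 was the highest knockout for Sema4g, and no other fit with 1 array left out called Sema4g.

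Sema7a, a lipid-anchored semaphorin that binds plexin-C1 and integrin beta-1 (probe set 10585778), was at 5.30, 5.27, 5.36 and 5.49 in controls and 5.53, 5.89, 5.72 and 5.83 in knockouts. The groups were 0.05 apart, with knockout 1 just above control 4. The difference was 0.39 ± 0.10 (SE, 1.31-fold, limma adjusted p = 0.0268). The adjusted p was 0.0790 with control 1 left out, 0.0746 with control 2, 0.0501 with control 3, 0.0733 with knockout 2, 0.0640 with knockout 3 and 0.0713 with knockout 4, so the call was lost in these 6 fits. Itgb1, the integrin partner, was at 9.83 and 9.81.

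The secreted class 3 semaphorins, which are the ligands of the neuropilins, had 0 of 7 members called by limma, with 1 at an unadjusted p under 0.05. That one was Sema3d, with 3.85 to 4.19 in controls and 3.50 to 3.95 in knockouts (difference -0.32 ± 0.11, SE, limma adjusted p = 0.103, or 0.0361 without knockout 4). Knockout 4 was its highest knockout, and Sema3d was called in no other fit with 1 array left out. Sema3a, Sema3e and Sema3f, ligands named for Nrp1, Plxnd1 and Nrp2, differed by 0.05, 0.01 and -0.02, each with an SE between 0.08 and 0.11. Of the class 5 semaphorins 0 of 2 were called, with 0 at an unadjusted p under 0.05 and the lowest p for Sema5b (difference -0.10 ± 0.09, SE). In class 6, Sema6a, Sema6b and Sema6c differed by 0.03, 0.16 and -0.03. Sema6a lies on the chromosome of Hsd17b4, with 4 protein-coding genes between them, and its limma adjusted p was 0.913. The 2 probe sets of Sema6b hold the same values on every array.

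**Figure D2:**
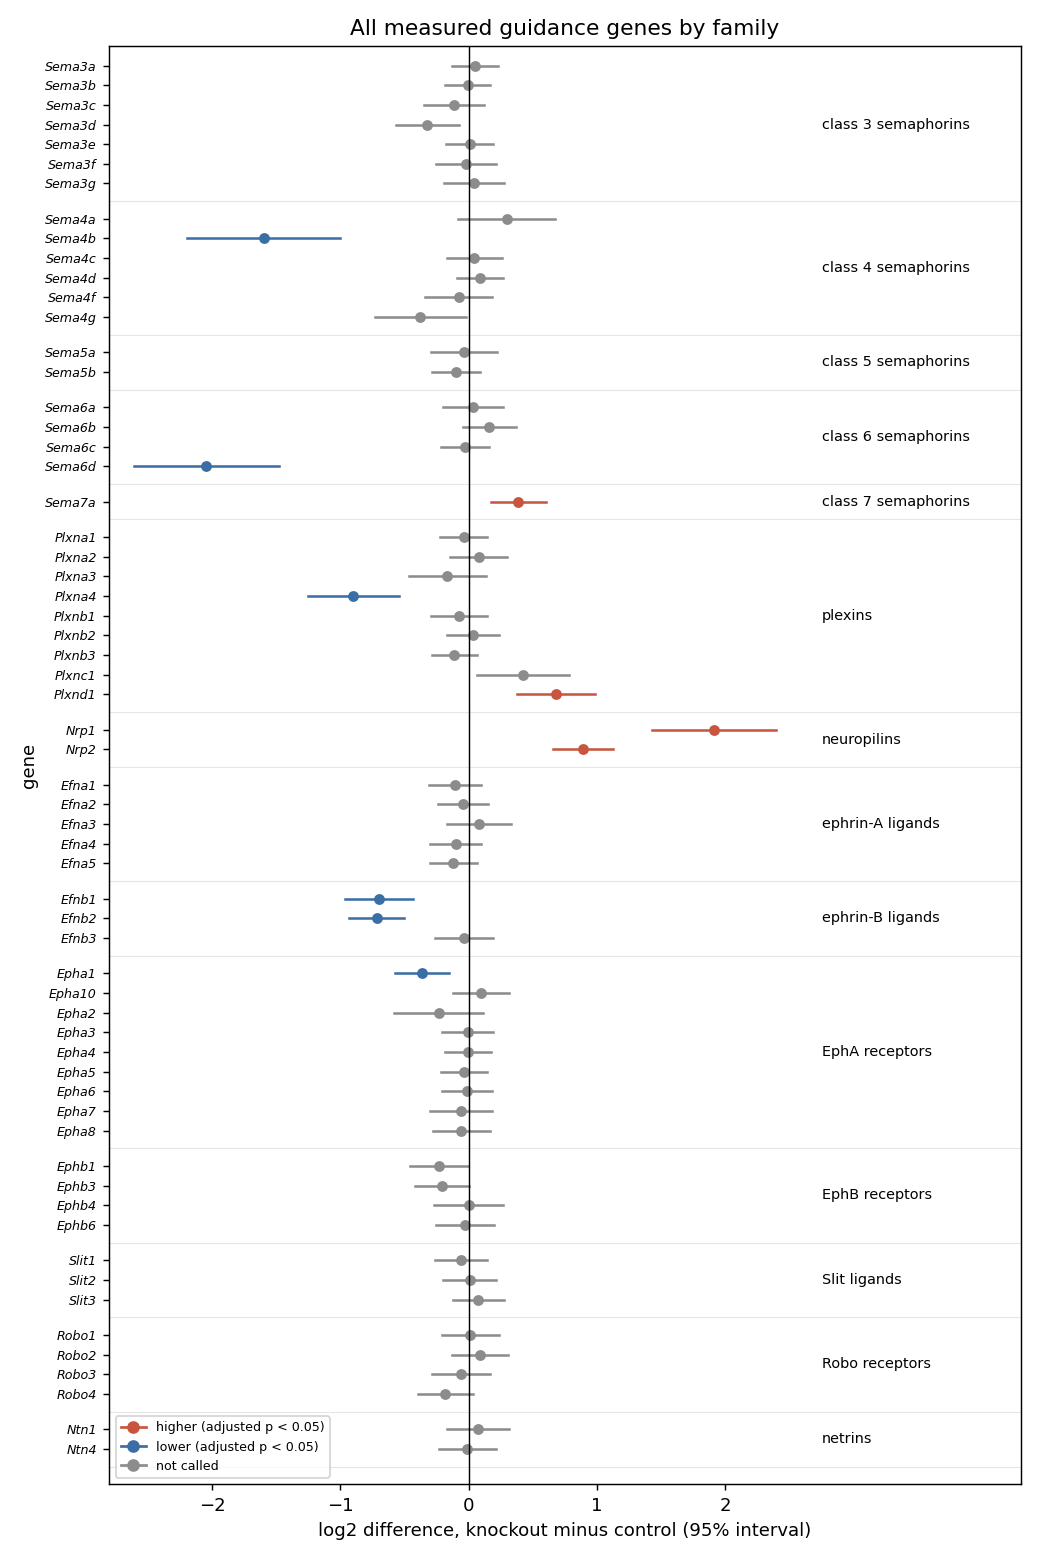
Log2 difference between knockout and control (point) with its 95% interval (line) for all 61 guidance genes, grouped by family, in red for higher, blue for lower and grey for not called. The grey differences lie between -0.38 and 0.42, and 46 of the 51 grey intervals lie within 0.5 of zero.

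Both called ephrins were of the B class, the transmembrane ephrins that can also signal back into the cell that carries them. Efnb2, known for its part in vessel formation (probe set 10576911), was at 7.07, 7.16, 6.90 and 7.23 in controls and 6.41, 6.43, 6.45 and 6.21 in knockouts. Efnb1 (probe set 10600936) was at 7.26, 7.75, 7.29 and 7.43 in controls and 6.74, 6.93, 6.55 and 6.70 in knockouts. The groups were 0.45 and 0.32 apart. Efnb2 fell by 0.72 ± 0.10 (SE, 1.64-fold lower, limma adjusted p = 0.000813).

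Efnb1 fell by 0.70 ± 0.12 (SE, 1.62-fold lower, limma adjusted p = 0.00321). It is 1 of 3 guidance genes on the X chromosome, with Plxna3 and Plxnb3, and without control 1, whose sex-specific transcripts went against its label, it differed by -0.76 (limma adjusted p = 0.00557). Tested against a change of 1.2-fold, Efnb1 did not pass (adjusted p = 0.0653) and Efnb2 did (0.0183). The remaining B ephrin, Efnb3, was at 5.36 to 5.63 in controls and 5.24 to 5.59 in knockouts and differed by -0.04 ± 0.10. Of the lipid-anchored A ephrins, 0 of 5 were called by limma and 0 had an unadjusted p under 0.05. Efna5 had the lowest p among them (difference -0.12 ± 0.09, SE).

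Among the Eph receptors, 1 of 9 in the A class was called and 0 of 4 in the B class. Epha1, a receptor whose gene region is linked to Alzheimer's disease in human studies (probe set 10544417), was at 5.89, 5.75, 5.98 and 6.11 in controls and 5.52, 5.63, 5.49 and 5.63 in knockouts. The groups were 0.12 apart. The difference was -0.36 ± 0.10 (SE, 1.29-fold lower, limma adjusted p = 0.0310). The adjusted p was 0.0649 with control 1 left out, 0.0665 with control 3, 0.0980 with control 4, 0.0676 with knockout 1, 0.0967 with knockout 3 and 0.0502 with knockout 4, so this call too was lost in 6 fits. It was also lost with the replicate number as a block (0.0532).

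In the B class, which binds B ephrins, 2 members had an unadjusted p under 0.05, Ephb1 (difference -0.23 ± 0.10, SE, limma adjusted p = 0.227) and Ephb3 (-0.21 ± 0.10, 0.235). The second probe set of Ephb1 differed by 0.01 ± 0.11. The other A receptors, Epha2 to Epha10, had differences between -0.23 and 0.10, and 0 of these 8 had an unadjusted p under 0.05.

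Of the Robo receptors 0 of 4, of the Slit ligands 0 of 3 and of the netrins 0 of 2 were called by limma, with 0 at an unadjusted p under 0.05 in each family. The lowest p in each family was that of Robo4, an endothelial Robo, which differed by -0.18 ± 0.10 (SE), of Slit3 (0.08 ± 0.09) and of Ntn1 (0.07 ± 0.11). The mean of a gene was at or above the median of all gene means, 6.24, for 21 of the 61 guidance genes and below it for 40. Of the 21, 8 were called, and of the 40, 2 were called, Sema7a and Epha1. Over all genes 16.9% were called at or above that median and 2.2% below it, and RMA understates changes of dim genes. For the 40 dimmer genes a missing call therefore gives only the interval of the difference.

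**Figure D3:**
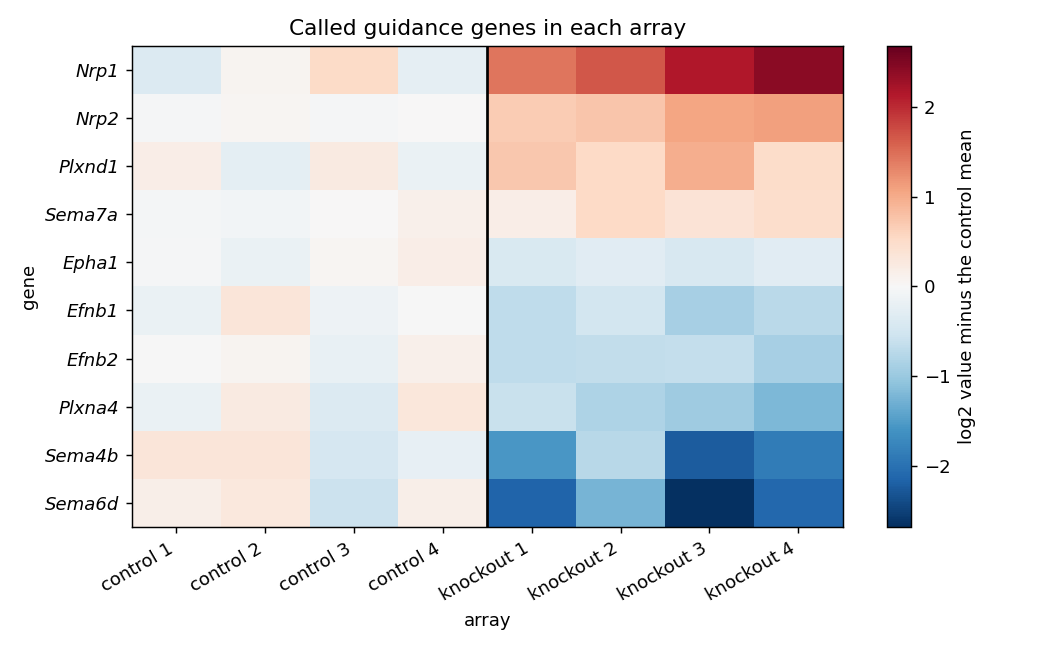
Log2 value of each called guidance gene in each array (columns, controls left of the line) minus the mean of the 4 controls, from blue (lower) to red (higher). Knockout 2 is the palest knockout at Sema6d (-1.25) and Sema4b (-0.74), and control 3 differs from the control mean by -0.58 at Sema6d and 0.52 at Nrp1.

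Genes that work with these families changed in part, and their shares stand beside 9.55% called over all genes. Of 14 semaphorin receptors and partners outside the plexins and neuropilins, 1 rose and 0 fell (7.14% called), with 2 at an unadjusted p under 0.05. It was Cd72, the lymphocyte-type receptor of Sema4d, with 6.24 to 8.20 in controls and 9.44 to 11.02 in knockouts (difference 3.10 ± 0.42, SE, limma adjusted p = 0.000783). Of 10 sheddases and processing proteases, 4 rose and 0 fell (40% called), with 6 at an unadjusted p under 0.05 (median difference 0.34). Adam9 rose by 0.86 ± 0.15 (SE), the membrane-bound matrix protease Mmp14 by 0.76 ± 0.17, and the gamma-secretase subunits Psen2 and Aph1a by 0.69 ± 0.13 and 0.41 ± 0.10. The adjusted p of Mmp14 was 0.0512 with control 1 left out, 0.0571 with control 2 and 0.0530 with knockout 3. That of Aph1a was 0.0576 with control 3 left out, 0.0678 with control 4 and 0.0592 with knockout 4.

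Of 15 genes for heparan sulfate chains and their cores, which bind Slits and semaphorins, 2 rose and 0 fell (13.3% called). An unadjusted p under 0.05 was found for 5. The syndecan Sdc3 went from 6.86 to 7.89 in controls to 8.61 to 9.35 in knockouts (difference 1.69 ± 0.21, SE, limma adjusted p = 0.000574). Sdc4 differed by 0.60 ± 0.14 (limma adjusted p = 0.0196), but missed the threshold with control 1 left out (0.0635), with control 2 (0.0695), with knockout 3 (0.0598) and with knockout 4 (0.0522).

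Of 46 GTPase regulators and effectors that relay guidance signals, 2 rose and 6 fell. That is 17.4% called, beside 9.55% of all genes and 16.9% of genes at or above the median of gene means. The split was 1 and 11 after quantile normalization and 1 and 13 after cyclic loess. Srgap2, a GTPase-activating protein that binds Robo1, fell from 11.71 to 10.70 (difference -1.01 ± 0.14, SE, limma adjusted p = 0.000721). Its relative Srgap3 fell by 0.46 ± 0.10 and the Rac inactivator Chn2 by 0.52 ± 0.10, while the kinase Fyn rose by 0.68 ± 0.14. Cfl1, the actin-severing cofilin, was the other gene that rose, by 0.39 ± 0.10 (limma adjusted p = 0.0298), and was named after its values were seen. Without control 2 the split was 1 and 3, without control 3 it was 1 and 8, and without control 1, knockout 3 or knockout 4 a single gene rose.

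Of 15 collapsin response mediators, MICAL proteins and adaptors, 0 rose and 1 fell (6.67% called), with 3 at an unadjusted p under 0.05. The one that fell was Mical3 (difference -0.54 ± 0.14, SE, limma adjusted p = 0.0290), which missed the threshold after median centring of the arrays (adjusted p = 0.0530) and with the mean of its probe sets (0.103). Its adjusted p was 0.0723 with control 1 left out, 0.0923 with control 2, 0.0535 with control 4, 0.0896 with knockout 3 and 0.0787 with knockout 4. Of 16 netrin and RGM receptors and further ligands, 0 were called by limma and 1 had an unadjusted p under 0.05. That was the co-receptor Rgmb (difference -0.34 ± 0.12, SE, limma adjusted p = 0.100). It was called without control 3 (adjusted p = 0.0274), which was its lowest control.

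Some markers of other cells moved with the groups. Of 8 brain-border macrophage markers, 4 were lower (Mrc1, Lyve1, Pf4 and F13a1) and 1 higher (Ms4a7), and their summed log2 level was 9.48 to 10.11 in controls and 8.89 to 9.49 in knockouts. Of 8 astrocyte markers 2 were higher, Gfap by 1.28 ± 0.20 (SE) and Aldoc by 0.76 ± 0.19, with a summed level of 9.72 to 9.87 and 9.82 to 9.94. Mbp alone was called, as higher, among 7 oligodendrocyte markers (summed level 9.17 to 9.32 and 9.34 to 9.50, median difference 0.02). At an unadjusted p under 0.05, 1 of these 7 was higher and 1 lower, Mog (-0.24 ± 0.10, SE). Cspg4 alone was called, as higher, among 7 precursor markers (8.15 to 8.46 and 8.37 to 8.60, median difference -0.04). Ccr2 was lower among 8 monocyte and neutrophil markers (11.53 to 14.11 and 12.69 to 13.53), and the other 7 were not called. The neutrophil genes S100a8, S100a9, Ngp and Camp were bright, with means from 9.71 to 11.63, and varied widely among controls. S100a8 ran from 9.86 in control 1 to 12.59 in control 3, and from 11.20 to 12.12 in knockouts. Of 10 neuronal, 7 pericyte and 7 lymphocyte markers 0 were called by limma, with 1 higher, 2 lower and 2 higher at an unadjusted p under 0.05. The summed pericyte level was 8.50 to 8.62 in controls and 8.36 to 8.47 in knockouts, without overlap. Summed levels overlapped for neurons (8.48 to 8.66 and 8.60 to 8.76) and lymphocytes (8.10 to 8.99 and 8.47 to 9.44). Values from RMA have no true zero, and the part of these cells in the guidance genes was not tested.

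Adjusted p-values under the alternatives showed which calls were stable. Nrp1, Nrp2, Sema6d, Sema4b, Plxna4 and Efnb2 were called in all 18 alternatives. Efnb1 and Plxnd1 were called in 17, all but the test against 1.2-fold. Sema7a was called in 9 and Epha1 in 8 of the 17 alternatives that kept them. Control 3 and knockout 2 lay between the groups in these same data, so leaving them out tends to widen differences by construction. Without control 3 and knockout 2, 5 guidance genes were higher and 5 lower. In that fit Sema7a and Epha1 were not called, and Plxnc1 (difference 0.67, limma adjusted p = 0.00946) and Sema4a (0.56, 0.0367) were. Calls gained in that fit are therefore no support for a change.

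**Figure D4:**
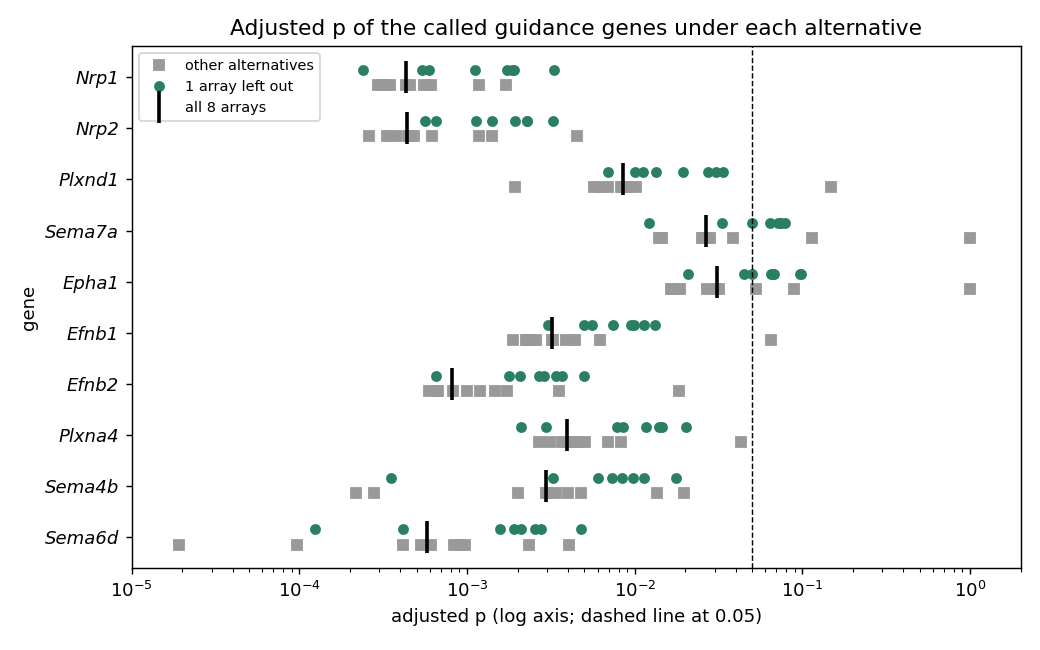
Adjusted p (log axis) of the 10 called guidance genes with all 8 arrays (black bar), with 1 array left out (green circles) and under the other alternatives (grey squares); the dashed line marks 0.05. Sema7a and Epha1 cross the line, with adjusted p up to 0.0790 and 0.0980 when 1 array was left out, while the other 8 genes stay left of it in each of these fits.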

How the data were processed

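The authors deposited 1 log2 value for each probe set on each array. Per the submitters' processing notes RMA was used, with a program not given in the sources used here. Values ran from 2.04 to 13.99, from which the log2 base was taken. Per the labels' protocols, RNA was amplified before labelling, which can add noise. RMA equalises the arrays, which hides any shift common to all genes. The table holds 28874 probe sets; 21789 have 1 gene symbol, 1621 several and 5464 none, and 21698 matched RefSeq (GRCm38.p6) by gene number with 0 symbols changed. Knockout was compared with control for 19938 genes by the two-sided moderated test of limma 3.58.1 (R 4.3.3), with neither covariate nor filter, with Benjamini-Hochberg adjustment over all of them and a threshold of 0.05. A gene "rose", "fell" or was "called" when it passed. Intervals are 95%. Called genes, and otherwise the gene with the lowest p of a family, were described first, and up to 4 called genes of each related list.

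The members, lists and alternatives were chosen with earlier results of these data known. The method was tested on simulated data. These were drawn independently for each gene and hold no differences shared by the genes of an array. Alternatives were quantile, median and cyclic loess scaling, a filter on dim genes, the mean of probe sets, array weights, a trended robust prior, a block for the replicate number, a test against 1.2-fold, each array left out, and control 3 with knockout 2 left out. Figures were drawn with matplotlib 3.10.9.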

Additional observations from a re-analysis of the deposited data

Results flagged for a closer look

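In 62 groups of 4 arrays, 4 had 1 array far from the other 3, where chance gives about 1 in 20. Sema6d was at 7.14 in control 3, against 7.88 to 8.00 in the other controls. Efnb2 was at 6.21 in knockout 4, against 6.41 to 6.45 in the other knockouts. Efna5 was at 4.33 in control 2, against 4.53 to 4.54 in the other controls. Ntn1 was at 6.03 in knockout 4, against 6.34 to 6.38 in the other knockouts.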

How the results depend on the processing

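The guidance gene counts of 4 higher and 6 lower stayed at 3 to 4 and 5 to 6 when 1 array was left out, and their median difference at -0.06 to -0.001. Tested against 1.2-fold, 2 were higher and 4 lower. With the replicate number as a block 4 were higher and 5 lower, Epha1 being lost. The labels link same-numbered arrays by the number alone. Correlations of their deviations were -0.06 to 0.16, and 1 of 4 pairs exceeded 0.1, beside -0.13 to 0.07 for arrays of different numbers. So few pairs cannot settle whether same-numbered samples were handled together. The block changed no other call of the genes named here. Sema4d, not called, turned to -0.035 after cyclic loess. Of the related lists, quantile normalization gave 1 lower gene of the netrin and RGM list, Rgmb. It also gave 1 higher and 11 lower GTPase regulators and 2 lower heparan sulfate genes. Cyclic loess gave 1 and 13, 1 lower semaphorin partner and 2 lower heparan sulfate genes. Without dim genes, which left 21 guidance genes, 1 heparan sulfate gene was lower. The 1 lower collapsin or MICAL gene became 0 with centred arrays and with the mean of probe sets. Against 1.2-fold, 0 GTPase regulators were higher and 1 lower, 0 collapsin or MICAL genes were lower, and 1 protease and 1 heparan sulfate gene were higher. Without control 3 and knockout 2, 1 GTPase regulator and 1 collapsin or MICAL gene were higher and 1 heparan sulfate gene lower. With 1 array left out, GTPase regulators numbered 1 to 3 higher and 3 to 8 lower. Lower collapsin or MICAL genes numbered 0 to 1, and lower genes of the netrin and RGM list 0 to 1. Heparan sulfate genes numbered 1 to 2 higher and 0 to 1 lower. In these fits Hsd17b4 lay between -3.41 and -2.60. The causes were not tested.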
